A study of Danio rerio with 6 samples.

Results

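Cyclins and cyclin-dependent kinases (CDKs) were followed in zebrafish embryos that overexpressed Mcpip1, the RNase encoded by *zc3h12a*. Members were chosen by a rule on gene names. The rule took every gene in the count data whose symbol begins with ccn and a cyclin letter that a digit or nothing follows. It also took symbols that begin with cdk and a digit or n, and left out *ccng1* and *cdkn1a*. Cyclins with a longer letter code, such as *ccnjl* and *ccnyl1*, are thus not members. This gave 65 of the 32057 genes in the count data. At least 1 count was found for 24567 of the 32057. The name rule also takes 13 genes that are neither cyclins, CDKs nor classical CDK inhibitors, such as *cdk5rap3* and *cdkn2aip*, and these are described last. Poly(A) RNA was sequenced from AB/TL embryos at 6 h post fertilization (hpf), the shield stage at the onset of gastrulation. In 3 libraries the embryos had been injected with mRNA of wild-type zebrafish Mcpip1 (Mcpip1 WT), and in 3 libraries with mRNA of the D112N form, which lacks catalytic activity (Mcpip1 DN). Both mRNAs were injected at the 1-cell stage into the yolk, also encoded the fluorescent protein mTurquoise behind a self-cleaving peptide, and were not confined to a cell type by a promoter. Each library was a pool of viable embryos, so embryos that had died by 6 hpf were not sampled, and embryos without injected Mcpip1 mRNA were not analysed here. Nothing in the labels says that the pools of a group came from separate clutches, and p-values measure the spread between these pools only.

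Cyclins are the regulatory subunits that switch on CDKs, and the name reflects their periodic destruction in the early cleavages of embryos. Cyclins of the A and B types drive S phase and mitosis with Cdk1 and Cdk2. Those of the D and E types drive entry into S phase with Cdk4, Cdk6 and Cdk2. A further set of cyclin-kinase pairs acts mainly in transcription, and of these Cdk7 with cyclin H also activates other CDKs. The early zebrafish embryo runs its rapid synchronous divisions on maternal mRNA, and its cell cycle lengthens and gains gap phases as its own genome is switched on and gastrulation begins. Cyclins are also regulated by protein destruction, which RNA counts do not show.

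The libraries held between 17686041 and 24662219 gene counts. *Zc3h12a* (ENSDARG00000005271), which counts injected and endogenous transcripts together, took 0.744%, 0.0883% and 0.120% of gene counts in the Mcpip1 WT pools 1, 2 and 3, against 0.150%, 0.0727% and 0.0397% in the Mcpip1 DN pools 1, 2 and 3. Pools are numbered by their replicate labels. Mcpip1 WT replicate 1 thus stood apart from the other 5 libraries, and the counts cannot tell the active from the mutated transcript. Another gene listed as zc3h12a, ENSDARG00000101034, had 9, 44 and 171 counts in the Mcpip1 WT pools and 41, 169 and 187 in Mcpip1 DN. All 16 matched markers of the shield-stage embryo, *gsc*, *tbxta* and *sox32* among them, were counted in every library. *Otx2* was the scarcest, with 2, 43 and 3 counts in the Mcpip1 WT pools and 1, 89 and 71 in Mcpip1 DN. Of 8 matched markers of later differentiated tissue, the red cell genes *hbae1.1* and *hbae3* were at 0 in all 6 libraries, but others were counted. *Ckma* had 71, 76 and 8 counts in the Mcpip1 WT pools and 21, 73 and 10 in Mcpip1 DN. *Ins* had 37, 28 and 33 in the Mcpip1 WT pools and 34, 12 and 27 in Mcpip1 DN. The summed level of 11 maternal egg transcripts was between 1845 and 3029.9 CPM (counts scaled to library size) in the Mcpip1 WT pools and between 1468 and 2082 CPM in Mcpip1 DN. *H1m* alone held most of this sum in every library, with a log2 fold change of 0.48 (edgeR, unadjusted p = 0.111). For 10 enveloping layer markers the summed level was between 6372 and 11907 CPM in the Mcpip1 WT pools and between 8797 and 14010.3 CPM in Mcpip1 DN. None of these markers passed the test, and their part in the results was not tested.

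All 65 genes had at least 1 count, 52 had a count in every library, and 54 passed the filter on low counts and were tested with edgeR's quasi-likelihood test. By the study's threshold (unadjusted p under 0.05, fold over 1.5), 0 of the 54 were higher and 2 were lower in Mcpip1 WT, relative to Mcpip1 DN. The genes that fell were *ccne2*, a G1/S cyclin, and *ccnc*, the cyclin of the Mediator kinase module. Across all 16126 genes tested, 0.874% were called higher and 1.27% lower, 2.14% in all, so that 2 calls among 54 genes were close to the background. After Benjamini-Hochberg adjustment 0 genes were under 0.05 by edgeR, while 356 genes (2.21%) were under 0.05 before adjustment. With DESeq2, 1 of these genes, neither a cyclin nor a CDK, was under 0.05 after adjustment. The median log2 fold change of the 54 genes was 0.02, with 28 values above 0 and 26 below, against a median of 0.01 over all genes. Values lay within 1.5-fold in 50 of the 54 genes (92.6%) and in 76.9% of all genes. The spread over the 6 libraries, as the standard deviation (SD) of log2 CPM, had a median of 0.40 for the 54 genes and of 0.56 for all genes. The widest members, *cdkn3* and *ccny* (both 1.86), had at most 100 counts in any library. The 54 genes were not matched to all genes on count level, and its part in both differences was not tested. In bulk RNA, fewer cells of a type and less RNA per cell cannot be told apart.

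**Figure D1:**
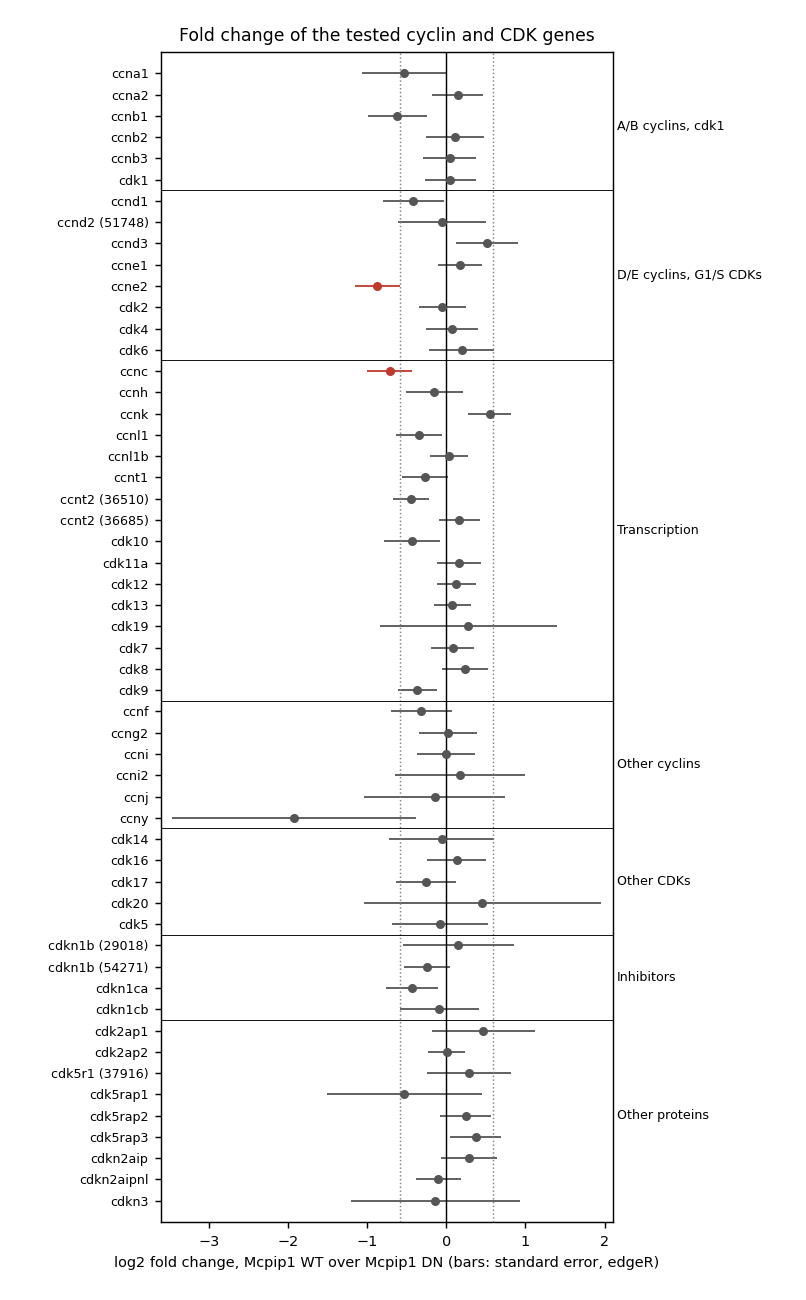
log2 fold change of Mcpip1 WT over Mcpip1 DN for the 54 tested genes, grouped by role, with points for the edgeR estimate and bars for its standard error (3 libraries in each group). Red marks *ccne2* and *ccnc*, which passed an unadjusted p under 0.05 with a fold over 1.5, and the dotted lines mark a fold of 1.5 in either direction. Digits in brackets are the last 5 of the Ensembl identifier, for names that a pair of genes shares.

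Among the 6 genes for A-type and B-type cyclins and *cdk1*, all were tested, 0 passed the threshold, and their median log2 fold change was 0.05. Cyclin A1 is the egg and early embryo form in Xenopus, and cyclin A2 the form of dividing somatic cells. *Ccna1* (ENSDARG00000043236) had 6148, 3635 and 13244 normalized counts across the Mcpip1 WT pools 1, 2 and 3, against 4006, 17006 and 12241 in the Mcpip1 DN pools 1, 2 and 3. Mcpip1 WT replicate 2 and Mcpip1 DN replicate 1 were lowest, and the range within each group was wider than the difference between their means. The estimate was a log2 fold change of -0.53 ± 0.53 (SE). Without Mcpip1 WT replicate 3 it was -1.17, past the threshold (edgeR, unadjusted p = 0.0329), and without Mcpip1 DN replicate 2 it was -0.09. *Ccna2* (ENSDARG00000011094) had normalized counts of 50687, 39755 and 29519 in the Mcpip1 WT pools and 47569, 31746 and 29213 in Mcpip1 DN. The groups overlapped almost fully, and the log2 fold change was 0.14 ± 0.32 (SE).

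*Ccna1* took 10.8%, 8.38% and 31.0% of the reads of both A-type cyclin genes in the Mcpip1 WT pools 1, 2 and 3, against 7.77%, 34.9% and 29.5% in Mcpip1 DN. The 95% Wilson intervals spanned less than 1 percentage point in each library and leave out every error but that of counting, as molecules were not tagged. Such a share does not depend on scaling between libraries, but it is one of reads and not of molecules, since gene lengths were not used. It set Mcpip1 WT replicates 1 and 2 and Mcpip1 DN replicate 1 apart from the other 3 libraries, and so did not follow the injected form. The summed level of the 11 maternal egg transcripts, mostly *h1m*, was 2457, 1845 and 3029.9 CPM in the Mcpip1 WT pools 1, 2 and 3, against 1468, 1933 and 2082 CPM in Mcpip1 DN. It was lowest in Mcpip1 DN replicate 1 and Mcpip1 WT replicate 2, next to Mcpip1 DN replicate 2. *H1m* itself did not follow this order, as it was higher in Mcpip1 WT replicate 2 than in Mcpip1 DN replicates 2 and 3. The part of these transcripts in the *ccna1* values was not tested.

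B-type cyclins bind Cdk1 to form the kinase that starts mitosis. *Ccnb1* (ENSDARG00000051923) had 9345, 14664 and 25448 normalized counts across the Mcpip1 WT pools and 18728, 26172 and 30923 in Mcpip1 DN. Mcpip1 WT replicates 1 and 2 were below all Mcpip1 DN libraries and replicate 3 was within them. The log2 fold change was -0.62 ± 0.37 (SE, edgeR unadjusted p = 0.125, adjusted p = 1.00). It was -1.07 without Mcpip1 WT replicate 3, past the threshold (edgeR, unadjusted p = 0.00852), and -0.33 without Mcpip1 WT replicate 1. *Ccnb2* (ENSDARG00000036180) had 12923, 6848 and 16752 normalized counts across the Mcpip1 WT pools and 7172, 13435 and 13252 in the Mcpip1 DN pools, giving a log2 fold change of 0.11 ± 0.36 (SE). *Ccnb3* (ENSDARG00000034855) is known from meiosis in mammals. It had 1824, 2446 and 1286 in the Mcpip1 WT pools and 2413, 1861 and 1127 in the Mcpip1 DN pools. Its log2 fold change was 0.04 ± 0.33 (SE). In both genes the groups overlapped, and Mcpip1 WT replicate 2 and Mcpip1 DN replicate 1 were the lowest libraries for *ccnb2* and the highest for *ccnb3*.

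Within the B-type reads, *ccnb1* took 38.8%, 61.2% and 58.5% in the Mcpip1 WT pools 1, 2 and 3, against 66.1%, 63.1% and 68.3% in Mcpip1 DN. The groups did not overlap, with 61.2% in Mcpip1 WT replicate 2 and 63.1% in Mcpip1 DN replicate 2 the closest, and Mcpip1 WT replicate 1 was far below the rest. The share of *ccnb1* was computed after the values of its genes were seen and is given without a test. Those of *ccnb2* and *ccnb3* overlapped between groups. *Cdk1* (ENSDARG00000087554), the partner kinase, had 693, 1061 and 624 normalized counts across the Mcpip1 WT pools and 821, 895 and 576 in Mcpip1 DN. Its groups overlapped, and the log2 fold change was 0.05 ± 0.32 (SE).

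**Figure D2:**
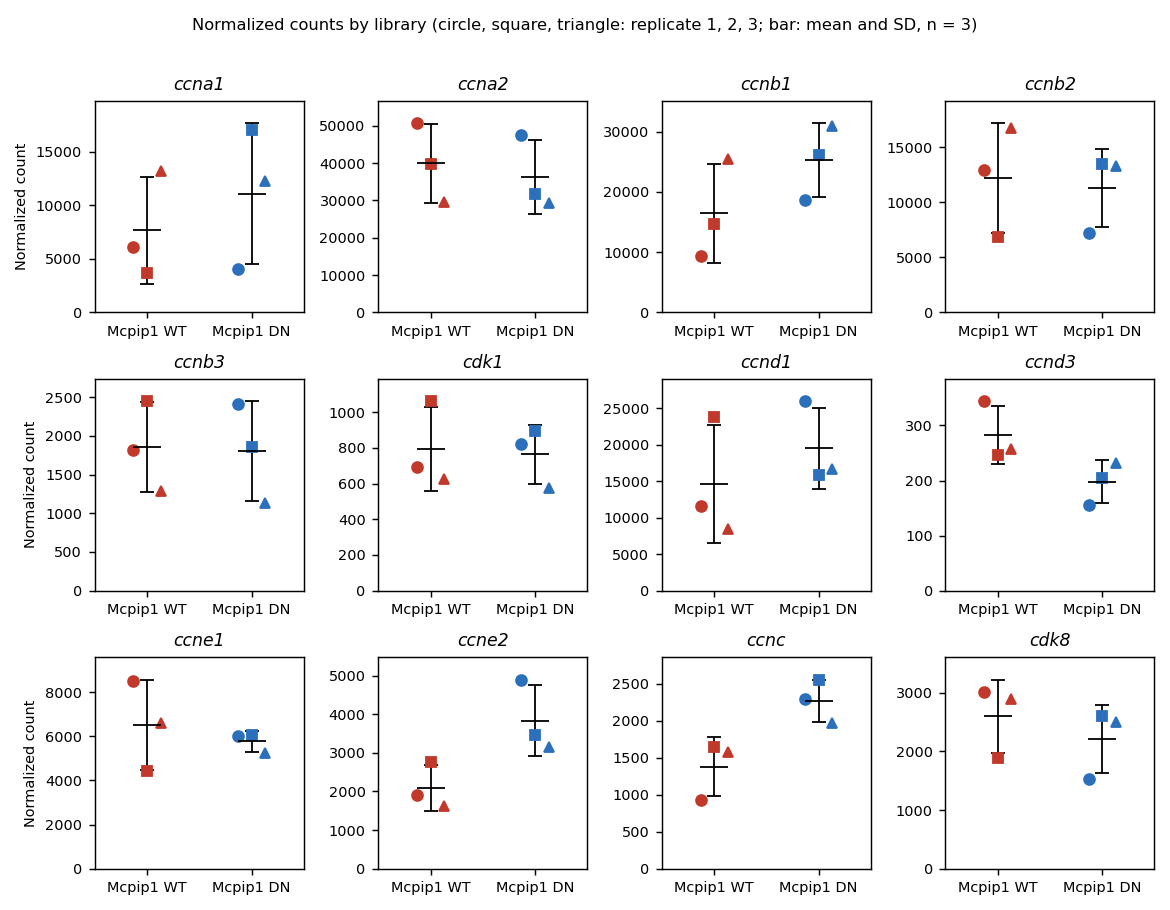
Normalized counts (counts scaled to the mean effective library size, axes from 0) of 12 cyclin and CDK genes in the 3 Mcpip1 WT libraries, in red, and the 3 Mcpip1 DN libraries, in blue, with the mean and SD of each group as black bars. The groups do not overlap in *ccnd3*, *ccne2* and *ccnc*, and in *ccna1* and *ccnb2* the libraries Mcpip1 WT replicate 2 and Mcpip1 DN replicate 1 are lowest.

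Of the 10 genes for D-type and E-type cyclins and their kinases, 8 were tested and 1 fell, and the median log2 fold change was 0.01. E-type cyclins activate Cdk2 at the start of S phase and are partly redundant in mouse development. *Ccne2* (ENSDARG00000098529) had 1913, 2765 and 1616 normalized counts across the Mcpip1 WT pools 1, 2 and 3, against 4894, 3456 and 3158 in the Mcpip1 DN pools 1, 2 and 3. Every Mcpip1 WT library was below every Mcpip1 DN library, and the highest single value was that of Mcpip1 DN replicate 1. The means were 2098 ± 596 in the Mcpip1 WT pools and 3836 ± 929 in Mcpip1 DN (SD, n = 3 each). This was a log2 fold change of -0.87 ± 0.28 (SE, edgeR unadjusted p = 0.0104, adjusted p = 1.00), and DESeq2 gave an unadjusted p of 0.00732. With each library left out in turn it stayed between -1.12 and -0.66. It missed the threshold only without Mcpip1 DN replicate 1, where edgeR gave an unadjusted p of 0.0539.

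The other E-type cyclin did not pass the test, and the difference between both genes was not tested. *Ccne1* (ENSDARG00000098622) had 8524, 4424 and 6592 normalized counts across the Mcpip1 WT pools and 6018, 6049.7 and 5235 in Mcpip1 DN. The Mcpip1 WT libraries lay on both sides of the Mcpip1 DN libraries, and the log2 fold change was 0.18 ± 0.27 (SE, edgeR unadjusted p = 0.535, adjusted p = 1.00). Among the reads of both E-type cyclin genes, *ccne2* took 18.3% (95% Wilson interval 17.6% to 19.1%), 38.5% (37.3% to 39.6%) and 19.7% (18.9% to 20.5%) in Mcpip1 WT replicates 1, 2 and 3. In Mcpip1 DN replicates 1, 2 and 3 it took 44.9% (43.8% to 45.9%), 36.4% (35.4% to 37.3%) and 37.6% (36.6% to 38.7%). Mcpip1 WT replicates 1 and 3 were far below Mcpip1 DN, and replicate 2 was within it. This share reuses the counts of *ccne2*, already called lower, and is no separate evidence for that call.

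**Figure D3:**
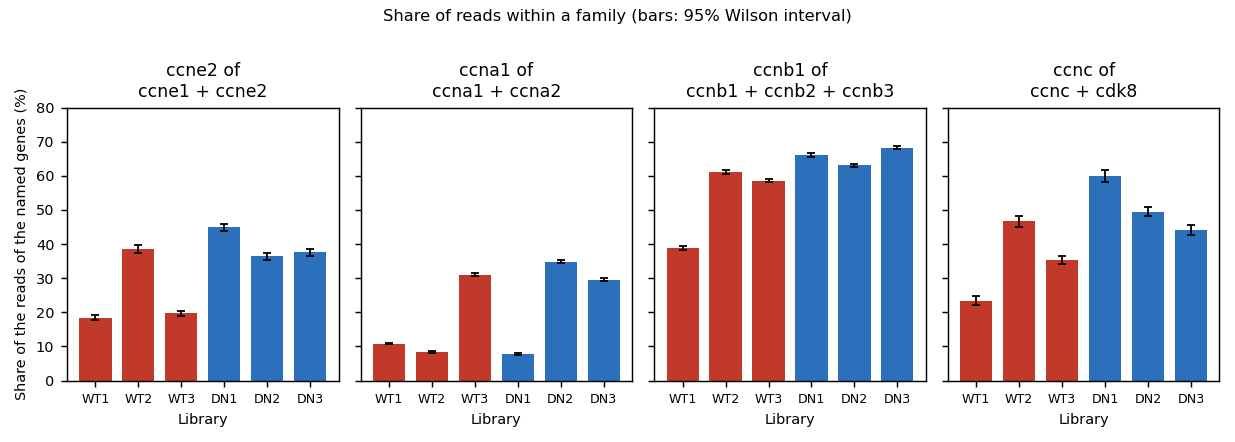
Share of reads, in percent from 0, that *ccne2*, *ccna1*, *ccnb1* and *ccnc* took of the reads of the genes named above each panel, in the 3 Mcpip1 WT libraries, in red, and the 3 Mcpip1 DN libraries, in blue, with 95% Wilson intervals as bars. The share of *ccne2* is 18.3% and 19.7% in Mcpip1 WT replicates 1 and 3 and between 36.4% and 44.9% in the other 4 libraries, while the share of *ccna1* splits both groups.

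*Cdk2* (ENSDARG00000026577), the kinase partner of the E-type cyclins, had 1277, 989 and 1738 normalized counts across the Mcpip1 WT pools and 1054, 1596 and 1490.4 in the Mcpip1 DN pools, giving a log2 fold change of -0.05 ± 0.29 (SE). The groups overlapped. D-type cyclins link growth signals to the cell cycle through Cdk4 and Cdk6. *Ccnd1* (ENSDARG00000101637) had 11590.3, 23755 and 8455 normalized counts across the Mcpip1 WT pools and 25917, 15787 and 16700.3 in Mcpip1 DN. Mcpip1 WT replicates 1 and 3 were below all Mcpip1 DN libraries, and replicate 2 was within them. The log2 fold change was -0.42 ± 0.38 (SE, edgeR unadjusted p = 0.304, adjusted p = 1.00). It was -0.96 without Mcpip1 WT replicate 2, past the threshold (edgeR, unadjusted p = 0.013), and -0.14 without Mcpip1 WT replicate 3.

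*Ccnd3* (ENSDARG00000027391) had 344, 247 and 257 normalized counts across the Mcpip1 WT pools and 156, 204 and 233 in Mcpip1 DN. All Mcpip1 WT values exceeded all Mcpip1 DN values, but the log2 fold change of 0.51 ± 0.39 (SE) was short of 1.5-fold (edgeR, unadjusted p = 0.212, adjusted p = 1.00). The name ccnd2 is shared by a pair of genes. ENSDARG00000051748 had 106, 54.3 and 157 normalized counts across the Mcpip1 WT pools and 110.2, 125 and 94.2 in Mcpip1 DN, with overlapping groups and a log2 fold change of -0.05 ± 0.55 (SE). The other, ENSDARG00000070408, had at most 2 counts in any library and was not tested.

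Neither kinase of the D-type cyclins passed the test. *Cdk4* (ENSDARG00000087937) had 938, 655 and 538 normalized counts across the Mcpip1 WT pools and 830.4, 614 and 581 in the Mcpip1 DN pools, giving a log2 fold change of 0.07 ± 0.32 (SE). *Cdk6* (ENSDARG00000070228) had 357, 855 and 341 in the Mcpip1 WT pools and 541, 423 and 393 in the Mcpip1 DN pools, giving a log2 fold change of 0.19 ± 0.41 (SE). Mcpip1 WT replicate 2 held the highest *cdk6* count, and without it the log2 fold change was -0.37. *Cdk21* (ENSDARG00000030163) was below the filter with 1 count in all 6 libraries together.

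The 16 cyclins and kinases of transcription were all tested. Their median log2 fold change was 0.06, 0 rose, and 1 fell, *ccnc*. Cyclin C and Cdk8 or Cdk19 form the kinase module of Mediator, which connects transcription factors to RNA polymerase II. *Ccnc* (ENSDARG00000009607) had 924, 1647 and 1577 normalized counts across the Mcpip1 WT pools 1, 2 and 3, against 2294, 2547 and 1976 in the Mcpip1 DN pools 1, 2 and 3. Every Mcpip1 WT library was below every Mcpip1 DN library, and the lowest was Mcpip1 WT replicate 1. The means were 1383 ± 399 in the Mcpip1 WT pools and 2272 ± 286 in Mcpip1 DN (SD, n = 3 each). This was a log2 fold change of -0.72 ± 0.28 (SE, edgeR unadjusted p = 0.0274, adjusted p = 1.00). It was -0.49 without Mcpip1 WT replicate 1 (unadjusted p = 0.108 from edgeR), and it also missed the threshold without Mcpip1 DN replicate 1 (-0.71, unadjusted p = 0.0536 from edgeR) and without Mcpip1 DN replicate 2 (-0.64, unadjusted p = 0.0913 from edgeR).

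The kinases of the module did not pass the test. *Cdk8* (ENSDARG00000016496) had 3016, 1881 and 2893 normalized counts across the Mcpip1 WT pools and 1534, 2597 and 2494 in the Mcpip1 DN pools, giving a log2 fold change of 0.23 ± 0.29 (SE). The groups overlapped, with Mcpip1 WT replicate 2 and Mcpip1 DN replicate 1 lowest. *Cdk19* (ENSDARG00000043858) had between 18.2 and 48.1 normalized counts across the Mcpip1 WT pools and between 2.75 and 41.2 in Mcpip1 DN. *Ccnc* took 23.4%, 46.7% and 35.3% of the reads of *ccnc* and *cdk8* in the Mcpip1 WT pools and 59.9%, 49.5% and 44.2% in Mcpip1 DN. By this share Mcpip1 WT replicates 1 and 3 were below all Mcpip1 DN libraries, and replicate 2 was within them. As it reuses the counts of a gene called lower, the share adds no separate evidence.

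Cdk9 with cyclin T forms P-TEFb, which releases paused RNA polymerase II. *Cdk9* (ENSDARG00000044811) had 3739, 4698 and 4469.7 normalized counts across the Mcpip1 WT pools and 6864, 4404 and 5354 in the Mcpip1 DN pools, giving a log2 fold change of -0.36 ± 0.25 (SE). Only Mcpip1 DN replicate 2 lay among the Mcpip1 WT libraries. *Ccnt1* (ENSDARG00000017525) had 701, 737 and 988 in the Mcpip1 WT pools and 1118, 800.3 and 1012 in the Mcpip1 DN pools, with overlapping groups and a log2 fold change of -0.27 ± 0.29 (SE). The name ccnt2 is shared by a pair of genes with different values. ENSDARG00000036510 had 6459.8, 6744 and 7694 normalized counts across the Mcpip1 WT pools and 10132, 9178 and 9093 in Mcpip1 DN. Every Mcpip1 WT library was below every Mcpip1 DN library, with a log2 fold change of -0.44 ± 0.23 (SE) that was under 1.5-fold (edgeR, unadjusted p = 0.0783, adjusted p = 1.00). This fold change moved little with each library left out, between -0.52 and -0.39. Its paralog ENSDARG00000036685 had 978, 1126 and 985 in the Mcpip1 WT pools and 994, 888 and 875 in Mcpip1 DN, with overlapping groups and a log2 fold change of 0.16 ± 0.26 (SE). How the counting shared reads between such paralogs is uncertain.

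Cdk7 and cyclin H form the CDK-activating kinase, which is also part of the transcription factor TFIIH. *Cdk7* (ENSDARG00000051916) had 929, 791 and 942 normalized counts across the Mcpip1 WT pools and 979, 810.5 and 731 in the Mcpip1 DN pools, giving a log2 fold change of 0.08 ± 0.28 (SE). *Ccnh* (ENSDARG00000007657) had 455, 310.2 and 415 in the Mcpip1 WT pools and 340.2, 368 and 600.5 in the Mcpip1 DN pools, giving a log2 fold change of -0.15 ± 0.36 (SE). In both the groups overlapped.

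Cyclin K partners Cdk12 and Cdk13, which phosphorylate elongating RNA polymerase II. *Ccnk* (ENSDARG00000034146) had 1735, 2989 and 1844 normalized counts across the Mcpip1 WT pools and 1459.8, 1605 and 1431 in Mcpip1 DN. All Mcpip1 WT libraries were above all Mcpip1 DN libraries, by a narrow margin outside Mcpip1 WT replicate 2. Its log2 fold change of 0.55 ± 0.27 (SE) was the highest of the 54 genes but was under 1.5-fold, as edgeR gave it (unadjusted p = 0.0713, adjusted p = 1.00). Without Mcpip1 WT replicate 2 it was 0.26, and without Mcpip1 WT replicate 1 it was 0.69, past the threshold (edgeR, unadjusted p = 0.0479). *Cdk12* and *cdk13* had log2 fold changes of 0.13 and 0.08. *Cdk10* (ENSDARG00000034256), the partner of cyclin M, had 227, 355 and 327 normalized counts across the Mcpip1 WT pools and 369, 463 and 396 in Mcpip1 DN. Its groups did not overlap, and the log2 fold change was -0.43 ± 0.35 (SE, edgeR unadjusted p = 0.239, adjusted p = 1.00). The splicing-linked cyclins *ccnl1* and *ccnl1b* and their partner kinase, listed as cdk11a, had log2 fold changes of -0.35, 0.04 and 0.16.

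Every library of one group was thus beyond every library of the other in 6 of the 54 genes (11.1%), and in 8.06% of all genes tested. *Ccnd3* and *ccnk* were wholly higher in Mcpip1 WT, against a background of 3.97%, and *ccne2*, *ccnc*, *cdk10* and ENSDARG00000036510 (ccnt2) wholly lower, against 4.08%. The count is close to the background. By role, 4 of the 16 transcription genes (25%) and 2 of the 8 tested D-type and E-type genes (25%) were among the 6. The transcription genes were 3 lower and 1 higher, and the D-type and E-type genes 1 lower and 1 higher. Other roles held 0, against 8.06% of all genes, and the split by role was not tested.

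The 4 tested CDK inhibitors had log2 fold changes between -0.44 and 0.15, and 0 passed the threshold. Inhibitors of the Cip/Kip family, encoded by *cdkn1b* and *cdkn1c*, bind cyclin-CDK complexes and slow the cycle when cells differentiate. *Cdkn1ca* (ENSDARG00000010878) had 748, 1460.0 and 765 normalized counts across the Mcpip1 WT pools and 1637, 1163 and 1222 in Mcpip1 DN. Mcpip1 WT replicates 1 and 3 were below all Mcpip1 DN libraries, and replicate 2 was within them, the same order of groups as in *ccnd1*. The log2 fold change was -0.44 ± 0.33 (SE). Without Mcpip1 WT replicate 2 it was -0.82, past the threshold (edgeR, unadjusted p = 0.022), and without Mcpip1 WT replicate 1 it was -0.27. *Cdkn1cb* (ENSDARG00000104903) had 180.5, 525 and 145 in the Mcpip1 WT pools and 266, 345 and 292 in the Mcpip1 DN pools, giving a log2 fold change of -0.09 ± 0.50 (SE). Mcpip1 WT replicate 2 was above the other libraries.

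Of the pair of genes named cdkn1b, ENSDARG00000054271 had 712, 1047 and 839 normalized counts across the Mcpip1 WT pools and 880.0, 912 and 1287 in the Mcpip1 DN pools, giving a log2 fold change of -0.25 ± 0.29 (SE). ENSDARG00000029018 had 56.8, 111 and 62.8 in the Mcpip1 WT pools and 127, 40.7 and 40.2 in the Mcpip1 DN pools, giving a log2 fold change of 0.15 ± 0.70 (SE). Both overlapped between groups. Inhibitors of the INK4 family, which block Cdk4 and Cdk6, were scarcely counted and stayed below the filter. *Cdkn2c* (ENSDARG00000057610) had 0, 0 and 29 counts in the Mcpip1 WT pools and 0, 0 and 6 in Mcpip1 DN, so that only replicate 3 of each group held any. *Cdkn2a/b* and *cdkn2d* had at most 5 counts in any library. Where none was counted, counting error alone leaves up to 3 counts possible, and lower expression was not detectable. Pools of a group differed by more than that in *cdkn2c*.

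The 6 other cyclins were all tested and 0 passed the threshold. *Ccnj* (ENSDARG00000059917), whose relative in Drosophila acts in the female germline, had 254, 25.6 and 531 normalized counts across the Mcpip1 WT pools and 53.7, 424 and 418 in Mcpip1 DN. Its range over the 6 libraries was 20.7-fold, with Mcpip1 WT replicate 2 and Mcpip1 DN replicate 1 far below the rest, and the log2 fold change was -0.14 ± 0.89 (SE). *Ccni2* (ENSDARG00000033046) was also lowest in these libraries, at 24.6 in Mcpip1 WT replicate 2 and 22.0 in Mcpip1 DN replicate 1, against 52.0 to 130.5 in the other 4. *Ccnf* (ENSDARG00000105046), an F-box protein of a ubiquitin ligase that activates no CDK, had 953, 2071 and 791 in the Mcpip1 WT pools and 1639, 2034 and 1067 in the Mcpip1 DN pools. The estimated log2 fold change was -0.31 ± 0.39 (SE). It was -0.86 without Mcpip1 WT replicate 2, past the threshold (edgeR, unadjusted p = 0.0295), and -0.06 without Mcpip1 WT replicate 3.

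*Ccny* (ENSDARG00000063677), the membrane-bound cyclin of Cdk14 and Cdk16, had the lowest log2 fold change of the 54 genes, -1.92. It rested on few reads, 7, 16 and 6 counts in the Mcpip1 WT pools and 57, 33 and 0 in Mcpip1 DN, and the standard error was 1.54 (edgeR, unadjusted p = 0.236, adjusted p = 1.00). *Ccng2* and *ccni*, which lie next to each other among the protein-coding genes of the RefSeq annotation of GRCz12tu, had log2 fold changes of 0.02 and -0.00.

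Of the 7 other CDKs, 5 were tested, with log2 fold changes between -0.26 (*cdk17*) and 0.45 (*cdk20*), and 0 passed the threshold. *Cdk5* (ENSDARG00000056683), best known from neurons, had between 57.3 and 148 normalized counts across the Mcpip1 WT pools and between 55.1 and 189 in Mcpip1 DN. The kinases *cdk14*, *cdk16* and *cdk17* were lowest in Mcpip1 WT replicate 2 and Mcpip1 DN replicate 1, as was *cdk5*. *Cdk15* (ENSDARG00000006093), which missed the filter, had 0, 7 and 14 raw counts in the Mcpip1 WT pools and 4, 5 and 66 in Mcpip1 DN, and *cdk18* had 1 count in all.

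Of the 13 other genes that the name rule takes, 9 were tested, with log2 fold changes between -0.53 and 0.47, and 0 passed the threshold. *Cdk5rap2*, which organizes centrosomal microtubules, and *cdk5rap3*, an adaptor of protein ufmylation, had 0.24 and 0.37. *Cdk2ap2* (ENSDARG00000103145) was among the most even genes, with 2848, 3625 and 3083 normalized counts across the Mcpip1 WT pools and 3718, 2964 and 2821 in Mcpip1 DN and a log2 fold change of 0.01 ± 0.23 (SE). *Cdkn3* (ENSDARG00000039130), a phosphatase of CDKs, had 55, 23 and 100 counts in the Mcpip1 WT pools and 1, 90 and 95 in Mcpip1 DN. *Cdk5r1* (ENSDARG00000037916), the activator of Cdk5, had 209, 212 and 183 normalized counts across the Mcpip1 WT pools and 230.0, 56.4 and 209 in Mcpip1 DN, so that Mcpip1 DN replicate 2 alone was low. The remaining 4 genes, the other *cdk5r1*, both *cdk5r2* genes and *ccnb1ip1*, had at most 2 counts in any library.

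**Figure D4:**
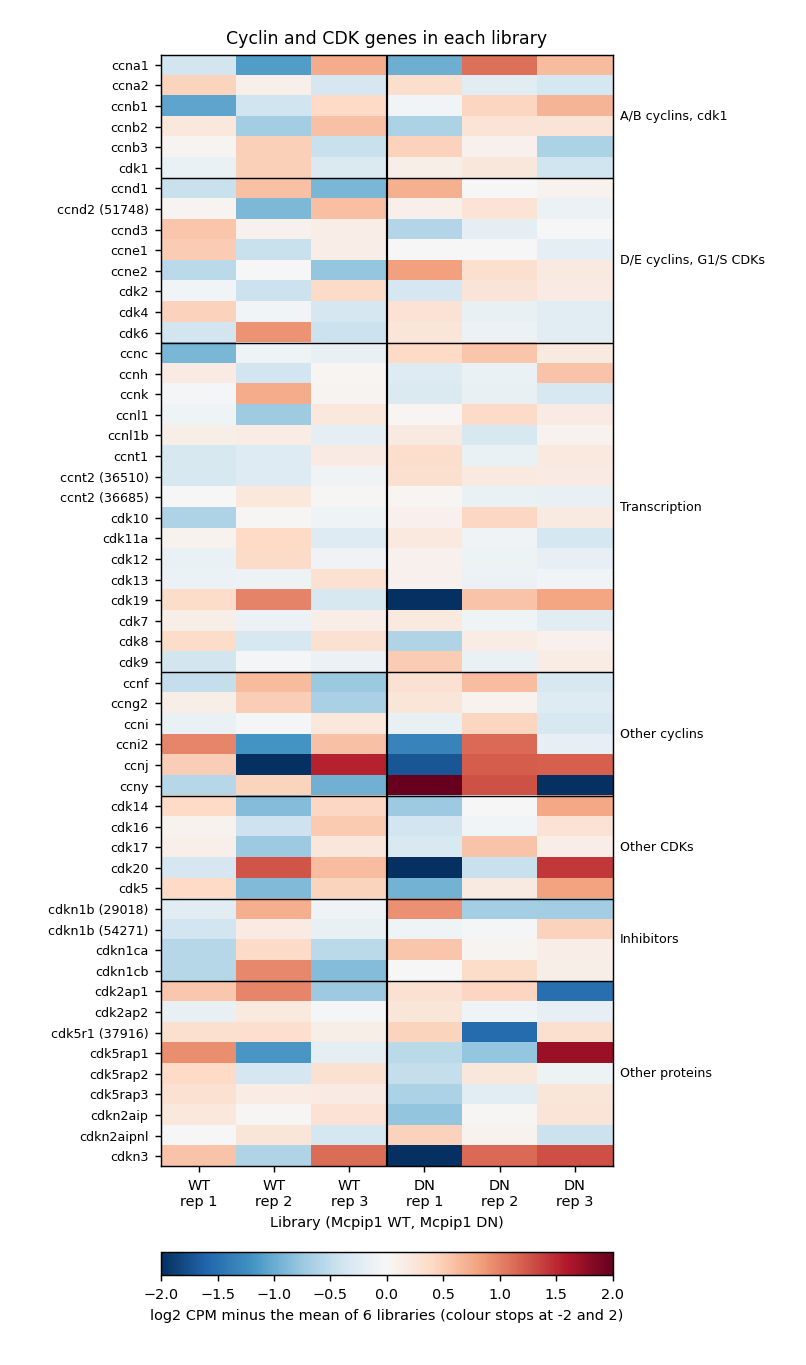
Deviation of log2 CPM from the mean of the 6 libraries for the 54 tested genes (rows, grouped by role) in the 3 Mcpip1 WT libraries, left of the line, and the 3 Mcpip1 DN libraries, right of it. Mcpip1 WT replicate 2 and Mcpip1 DN replicate 1 are the lowest libraries in 13 genes, among them *ccna1*, *ccnb2*, *cdk2* and *ccnj*, and the highest in 13 others, among them *ccnb3*, *ccnd1*, *cdk6* and *cdkn1ca*.

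The order of libraries in many genes ran across the injected forms, among the cyclins and CDKs as among all genes. Mcpip1 WT replicate 2 and Mcpip1 DN replicate 1 were the lowest libraries in 13 of the 54 genes (24.1%), against 18.7% of all genes tested. These were *ccna1*, *ccnb2*, *cdk2*, *ccnh*, *cdk8*, *ccni2*, *ccnj*, *cdk5*, *cdk14*, *cdk16*, *cdk17*, *cdk5rap2* and *cdkn3*. The same libraries were the highest in another 13 genes (24.1%), against 11.9% of all genes. These were *ccnb3*, *ccnd1*, *cdk6*, *ccnl1b*, cdk11a, *cdk12*, *ccng2*, *cdkn1ca*, *cdk2ap2*, *cdkn2aipnl* and 1 gene each of the names ccnt2 (ENSDARG00000036685), cdkn1b (ENSDARG00000029018) and cdk5r1 (ENSDARG00000037916). Other pairs of libraries were also shared, with Mcpip1 WT replicates 1 and 3 lowest in 9 of the 54 genes (16.7%), against 8.25% of all genes, and Mcpip1 WT replicate 3 and Mcpip1 DN replicate 3 lowest in 9 (16.7%), against 11.9%. These orders were looked at after the values were seen, point in opposite directions in different genes, and are a description of these pools without a test. Several marker lists had their extremes in Mcpip1 WT replicate 2 and Mcpip1 DN replicate 1. These libraries also had the lowest TMM factors, 0.877 and 0.909, against 0.967 to 1.17 in the other libraries. The part of this scaling in the extremes was not tested. The summed level of the shield-stage markers was highest there, at 5793 and 5724 CPM, against 2432 to 4546 CPM in the other 4 libraries. *Tbx16* and *ved* held most of this sum in every library, and not every marker followed it. *Ndr1* was highest in Mcpip1 WT replicate 1 and *otx2* in Mcpip1 DN replicate 2. In Mcpip1 WT replicate 2 and Mcpip1 DN replicate 1, the enveloping layer sum (11907 and 14010.3 CPM) was also highest. So was that of the yolk syncytial layer there (2288 and 2175 CPM, mostly *apoeb*), while that of the maternal egg transcripts was lowest there. Not every maternal transcript followed its sum. *Buc* and *btg4* were lowest in both libraries, but *h1m* was higher in Mcpip1 WT replicate 2 than in Mcpip1 DN replicates 2 and 3. *Zar1* was highest in Mcpip1 WT replicate 2 and *zp3a.1* in Mcpip1 DN replicate 1. The summed level of primordial germ cell markers set these libraries apart from each other. It was highest in Mcpip1 DN replicate 1 (651 CPM). Mcpip1 WT replicate 2 (480 CPM) was lowest, beside Mcpip1 WT replicate 1 (481 CPM). In Mcpip1 WT replicate 2 and Mcpip1 DN replicate 1, *ddx4* held most of this sum, while *tdrd7a* was at its lowest in both. Markers of later differentiated tissue had neither extreme there. The part of these markers in the order of the cyclin and CDK genes was not tested.

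Companion genes of the cell cycle, from lists written from general knowledge, rarely passed the test. Of 40 genes of replication licensing and DNA synthesis, all tested, 1 rose, *mcm10*, a factor that helps to start replication forks, with a log2 fold change of 0.62, and the median was 0.12. Of 40 genes of mitosis, the spindle checkpoint and the anaphase-promoting complex, 0 passed the threshold and the median was 0.08. Among 29 tested CDK regulators and G1/S transcription factors, 1 fell, *e2f3*, with a log2 fold change of -0.68, and the median was -0.10. E2F factors switch on the genes of S phase. Among 18 tested partners of the transcription CDKs, 1 fell, *gtf2h5*, a small subunit of TFIIH, with a log2 fold change of -0.72, and the median was 0.05. With 0.874% of all genes called higher and 1.27% lower, these counts were near the background.

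**Figure D5:**
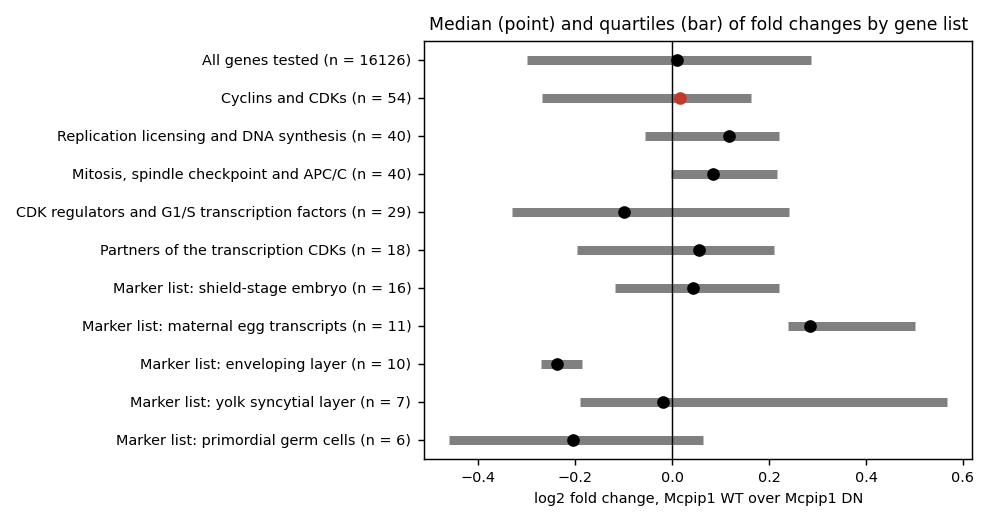
Median (point) and quartiles (bar) of the log2 fold change of Mcpip1 WT over Mcpip1 DN in all genes tested, in the 54 cyclin and CDK genes (red point), in 4 companion lists and in 5 marker lists, with the number of genes tested in brackets. The cyclin and CDK median, 0.02, lies beside that of all genes, 0.01, and the maternal egg transcripts, at 0.28, and the enveloping layer markers, at -0.24, lie farthest from it on either side.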

How the data were processed

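Poly(A) RNA of 6 embryo pools at 6 hpf was sequenced on the Ion Proton. The authors mapped the reads to GRCz11 with STAR 2.7.10a, and bowtie2 2.4.4 for unmapped reads, and deposited raw counts per Ensembl gene from htseq-count. The strand setting is not given in the sources used here, so overlapping and antisense genes are uncertain. The last 5 rows of each file name no gene, held 16.5% to 26.1% of counts and were left out. Groups and replicate numbers come from the sample titles.

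The name table gave symbols, often in their human form, for 28988 of 32057 identifiers. Symbols are written here in lower case, and members were matched ignoring case. The members and lists were chosen with earlier results of these data known. Deposited counts were tested with edgeR 4.0.16 in R 4.3.3 (filterByExpr with minimum count 10, TMM, glmQLFit and glmQLFTest, no covariates, 2-sided, Benjamini-Hochberg adjustment over 16126 genes). Calls used the study's threshold, unadjusted p under 0.05 and fold over 1.5. Normalized counts are scaled to the mean effective library size, and log2 CPM has a prior count of 2. Standard errors are the fold change over the root of the F statistic. Members with all 6 values are those past the threshold, the A-, B-, D- and E-type cyclins, their kinases, the main transcription pairs and the tested inhibitors, and any other member was named after its values were seen. Alternatives were DESeq2 1.42.0, its size factors, other filters, normalization without *zc3h12a*, a replicate block, and the omission of 1 library at a time. The tests were also run on simulated counts of independent libraries. The outcome is not reported here and is not used to judge any result above.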

Additional observations from a re-analysis of the deposited data

How the results depend on the processing

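The replicate number was tried as a block. Deviations of same-numbered libraries from their group means correlated at 0.01, -0.08 and 0.30 for replicates 1, 2 and 3. Differently numbered libraries correlated between -0.36 and 0.29, the highest for Mcpip1 WT replicate 2 and Mcpip1 DN replicate 1. Pairing by number was thus not seen throughout, but these values cannot tell whether any libraries shared a clutch or a sequencing run. The replicate block gave 3 lower members, with *ccnb1* added (log2 fold change -0.71, unadjusted p = 0.0142 and adjusted p = 1.00 from edgeR), and 144 higher and 288 lower genes in all, against 141 and 204. *Ccne2* and *ccnc* were the 2 lower members, with 0 higher, under both DESeq2 fits, DESeq2's size factors, normalization without *zc3h12a*, all genes with at least 1 count and a minimum count of 30. On all genes with at least 1 count, edgeR called 336 higher and 432 lower genes and DESeq2 296 and 328, with more genes tested, and the members' median log2 fold change was -0.0108 in DESeq2, against 0.02. In that wider edgeR fit 9 genes had an adjusted p under 0.05, and 0 members did in any fit. The adjusted p of *ccne2* was between 0.876 and 1.00 over its alternatives.

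Leaving out 1 library at a time moved the number of lower members between 0 (without Mcpip1 DN replicate 1) and 5 (without Mcpip1 WT replicate 2), and that of higher members between 0 and 1. Without Mcpip1 WT replicate 1 there was 1 lower and 1 higher member, without Mcpip1 WT replicate 3 there were 4 lower, and without Mcpip1 DN replicate 2 there was 1 lower. The members' median was between -0.11 and 0.0187, higher genes in all between 69 and 291, and lower genes in all between 75 and 512. Between 16821 and 16976 genes, 54 or 55 of them members, were tested in these fits. The all-gene counts are ranges over the fits. Whether the members called in a fit differ from the share of all genes called in that fit was thus not assessed. Of the 54 members, 23 kept the sign of their fold change in each of these fits, and 50 in the other alternatives. With 3 pools in each group, 1 pool decided many of these calls.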
